A study of Mus musculus with 9 samples.

Results

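CpG methylation at the promoters of Camta1 and Camta2 was low in all but one of the 4 amplified regions, and no CpG site or region passed the test for a difference after DNMT3a or DNMT3b siRNA. The CpG sites described are those listed for the amplicons Camta1_1, Camta1_2, Camta2_1 and Camta2_2 that had at least 30 reads in each of the 9 libraries. Of 95 listed sites 93 were kept, 51 of 53 for Camta1 and 42 of 42 for Camta2. They are 93 of the 310 CpG sites that reached this depth in the whole series, which lists 355. Both sites left out belong to Camta1, at offset 378 of Camta1_1 and offset 169 of Camta1_2.

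Embryos of the CD-1 mouse strain were taken at embryonic day 13.5 and their ventricles pooled by litter, and the cardiomyocytes were cultured for 48 h before transfection with 0.012 pmol of siRNA. The 3 groups received a pool of siRNAs to DNMT3a, a pool to DNMT3b, or the AllStars negative control siRNA, with 3 libraries each. Cells were collected 72 h later in all groups and enriched on magnetic columns with an antibody to VCAM1, and no mutant allele is named for any group. Converted DNA was amplified at 2 regions of each of 15 genes, and 26 of the 30 regions had reads. The labels do not say which libraries came from separate cultures, so p-values measure the spread between these libraries, which may be technical. Dnmt3a and Dnmt3b were not amplified, so how far each was knocked down is not analysed here, and methylation of 15 promoters holds no test of the cell type.

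Camta1 and Camta2 encode calmodulin-binding transcription activators, proteins with a CG-1 DNA-binding domain, ankyrin repeats and motifs that bind calmodulin. CAMTA2 is known in the heart as a coactivator that works with the cardiac homeobox factor Nkx2-5 at the gene for atrial natriuretic factor (Nppa), that is held back by class II histone deacetylases and that promotes cardiac growth. DNMT3A and DNMT3B place methyl groups on cytosines, mostly at CpG. Promoters dense in CpG are as a rule free of this mark in most cell types.

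Bisulfite converts an unmethylated cytosine so that it is read as T, and a methylated one is still read as C. The share of reads carrying C, in percent, therefore gives the methylation level of a site. A region's level averages its kept CpG sites, each with equal weight. Cytosines outside CpG in the same amplicon (contexts CHG and CHH, where H is any base but G) show how many reads carry C without CpG methylation. Their pooled percent is called the non-CpG floor.

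Camta2 lies on chromosome 11 of GRCm38.p6 at chr11:70669463-70688145, on the minus strand. The contexts of Camta2_1 matched a RefSeq promoter window of Camta2 at 87 of 87 cytosines, from offset 1 to offset 246. Offset 1 to 198 is chr11:70688106-70688303, and offset 199 is a RefSeq start of the gene at position 70688105. The annotated gene begins at 70688145, so the last bases before offset 199 also lie inside it. The neighbour Inca1 is annotated at chr11:70688361-70700285. These 198 bases are shown because they lead up to that start and hold offset 166, the CpG site with the highest level of Camta2_1. CpG dinucleotides are in capitals, and the strand is that of the gene (RefSeq, GRCm38.p6).
Camta2_1, offsets 1 to 198: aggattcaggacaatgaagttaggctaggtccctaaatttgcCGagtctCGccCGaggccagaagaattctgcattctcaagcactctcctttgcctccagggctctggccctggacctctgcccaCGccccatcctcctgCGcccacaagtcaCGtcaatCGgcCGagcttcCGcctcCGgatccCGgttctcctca

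The stretch holds 11 CpG sites, and 5 more fall in the matched bases from the start on. The other regions matched the Camta promoter windows at no more than 18.2% of cytosines, so their genome positions are not given here. Their sequence can be read only in part, from the bases that the files list as the context of each cytosine, with n for a base not listed. The following stretches hold the methylated sites of Camta2_2. CpG sites are again in capitals.
Camta2_2, offsets 176 to 252: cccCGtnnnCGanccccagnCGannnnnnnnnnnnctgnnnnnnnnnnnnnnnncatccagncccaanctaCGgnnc
Camta2_2, offsets 296 to 340: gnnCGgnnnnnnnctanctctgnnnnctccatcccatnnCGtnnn
Camta2_2, offsets 382 to 396: actCGcagcCGgnnn

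Camta1 lies at chr4:151059523-151861768. A stretch of each of its amplicons shows the contrast in CpG spacing, with 12 CpG sites in 85 bases of Camta1_1 and 7 in 99 bases of Camta1_2.
Camta1_1, offsets 102 to 186: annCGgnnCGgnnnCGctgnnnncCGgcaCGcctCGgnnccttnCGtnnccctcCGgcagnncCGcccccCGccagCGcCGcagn
Camta1_2, offsets 232 to 330: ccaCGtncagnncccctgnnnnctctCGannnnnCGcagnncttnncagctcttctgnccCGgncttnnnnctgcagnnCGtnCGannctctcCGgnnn

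Camta1_1 had 11.3 listed CpG sites per 100 bases and Camta2_1 had 7.82, ranks 2 and 3 in density among the 26 regions. Camta1_2 had 2.63 and Camta2_2 had 1.87. In RefSeq windows of 300 bases around gene starts, the Camta1 window held 28 CpG and the 2 Camta2 windows 19 and 20, against a median of 7 over 32817 windows. As many CpG as in the Camta1 window were found in 14.2% of all windows, and as many as in the Camta2 window that Camta2_1 matched in 28.0%. Only Camta2_1 matched any of these windows, so the counts in the others are not those of the amplicons measured. Levels in negative siRNA ranked Camta1_2, Camta2_1 and Camta1_1 as the 3 lowest of the 26 regions, with Camta2_2 at rank 9. Over the 26 regions the level fell with density (Spearman's rho −0.53, a description, since amplicons share libraries and 2 come from each gene). Camta1_2 was as low as the dense regions at less than 3 CpG sites per 100 bases.

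**Figure D1:**
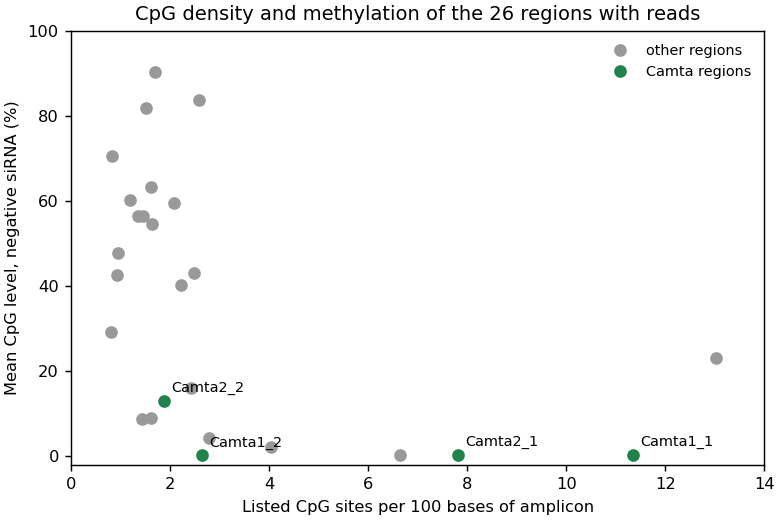
Listed CpG sites per 100 bases of amplicon (x) against the mean CpG level in negative siRNA in percent of reads carrying C (y), with a point for each of the 26 regions with reads. Camta1_1, Camta1_2 and Camta2_1 lie near 0% and Camta2_2 at 13.1%.

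The 9 libraries held 27193672 to 32543683 cytosine calls each, of which 11.5% to 16.2% fell in the Camta amplicons. The median kept CpG site had 15724 to 24145 reads in Camta1_1, 5792 to 10298.5 in Camta2_1 and 5893.5 to 16846 in Camta2_2. Camta1_2 was far shallower at 104.5 to 1007.5 reads, and its 2 shallowest libraries, with 104.5 and 140.5 reads, were both negative siRNA. The reads are PCR copies with no molecular identifier to tell molecules apart, so the intervals and limits given cover counting error only. Libraries that stood apart were replicate 2 of DNMT3a siRNA and, at Camta2_1, replicate 1 of DNMT3b siRNA.

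Camta2_2 was the only Camta region with levels well above its floor. In negative siRNA replicates 1, 2 and 3 its level was 12.6%, 13.1% and 13.7%. DNMT3a siRNA gave 11.2%, 15.3% and 11.4%. The DNMT3b siRNA libraries were at 11.8%, 12.5% and 12.2%. Floors were 0.132% to 0.156% in 8 libraries and 0.338% in replicate 2 of DNMT3a siRNA. All DNMT3b siRNA libraries lay below all negative siRNA libraries, whereas the DNMT3a siRNA libraries lay on both sides. CpG exceeded the floor by 12.5 ± 1.20 points (SD, n = 9 libraries) and in 9 of 9 libraries (exact two-sided sign-flip test, adjusted p = 0.00521 over the 4 regions; 0.00391 unadjusted is the smallest that 9 libraries can give).

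All 8 sites of Camta2_2 had a mean of 1% or more over the 9 libraries, and they formed a peak. In negative siRNA the mean was 7.11% at offset 179, rose to 21.3% at 185 and 28.7% at 196, and fell through 24.3% at 247, 14.7% at 299 and 5.00% at 335 to 1.37% at 385 and 2.24% at 391. The highest site over the 9 libraries was offset 196 at 27.5% and the lowest was offset 385 at 1.15%. Offsets 179 and 185 lie 6 bases apart, and the level at 185 was 2.69 to 3.79 times that at 179 in the 9 libraries. At offset 196 negative siRNA ranged from 27.4% to 29.9%, DNMT3a siRNA from 24.2% to 27.5% and DNMT3b siRNA from 27.3% to 28.3%. This order of sites was far larger than any difference between siRNAs.

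**Figure D2:**
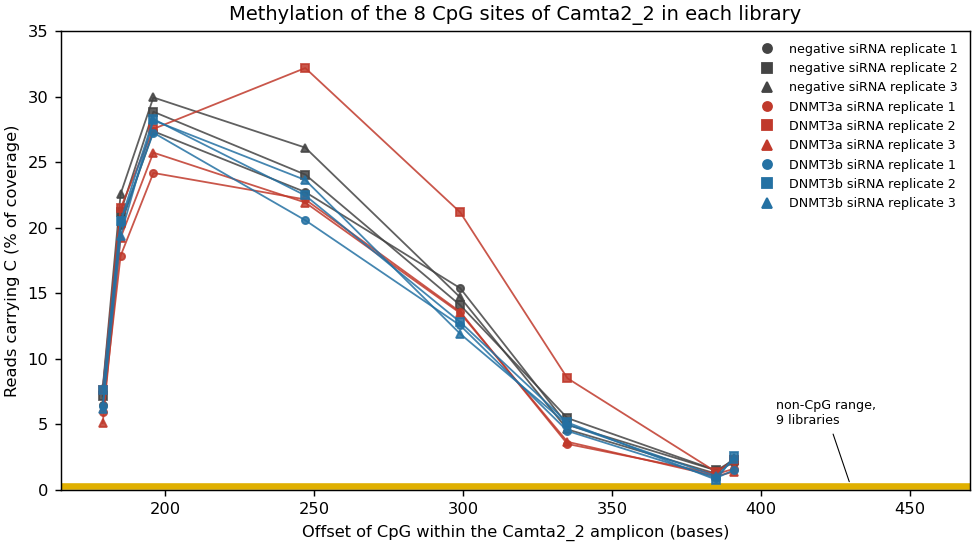
Percent of reads carrying C (y) at the 8 CpG sites of Camta2_2 by offset within the amplicon in bases (x), with a line for each of the 9 libraries and a yellow band for the range of the non-CpG floor. All libraries rise to a maximum at offset 196 or 247 and fall to between 0.742% and 2.56% at offsets 385 and 391. Replicate 2 of DNMT3a siRNA lies above the others at offsets 247, 299 and 335.

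At CpG sites, replicate 2 of DNMT3a siRNA departed from the other libraries over part of Camta2_2 only. At offset 247 it was at 32.2%, against 20.6% to 26.1% in the other 8 libraries. Its value at offset 299 was 21.2%, against 11.9% to 15.4%, and at offset 335 it was 8.50%, against 3.48% to 5.46%. At offsets 179, 185, 196, 385 and 391 it lay inside the range of the others. The mean over the 3 sites from 247 to 335 was 20.6% in this library, and 13.1% and 13.0% in replicates 1 and 3. The pooled non-CpG floor of replicate 2 was raised in each stretch of the amplicon, at 0.409% over offsets 1 to 221, 0.290% over 222 to 360 and 0.351% over 361 to 427. The other 8 libraries were at 0.142% to 0.178%, 0.115% to 0.139% and 0.174% to 0.264% in those stretches, which were set after the values were seen. Within the stretches the rise was uneven. Among non-CpG cytosines with at least 1000 reads in every library, replicate 2 of DNMT3a siRNA was the highest at 49 of 78. At offset 329, for example, it was at 0.0722%, inside the range of the other 8 at 0.0561% to 0.208%. The middle stretch thus held a CpG mean of 20.6% over a floor of 0.290% in this library, against 12.5% to 15.1% over floors of at most 0.139% in the other 8.

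The first question of the design was how these sites differ between DNMT3a siRNA and negative siRNA. None of the 93 sites was called (0 of 310 in the series, 0%) by edgeR's quasi-likelihood test at a Benjamini-Hochberg adjusted p under 0.05 over all 310 sites, nor by limma or DESeq2. At an unadjusted p under 0.05, edgeR gave 10 of 93, limma 12 and DESeq2 12. The 10 were all higher after DNMT3a siRNA and 9 of them lay in Camta2_1. Over the series 12.6% of sites were under 0.05, 4.52% of sites higher and 8.06% lower. Groups did not overlap at 12 Camta sites that were higher and 1 that was lower, against 4.52% and 10.6% of all 310. The Camta sites had a median log2 odds ratio of 0.33, and all 310 sites one of −0.11.

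Camta2_1, the region over the gene start, gave most of these sites. Its level was 0.191%, 0.237% and 0.249% in negative siRNA and 0.330%, 0.534% and 0.313% in DNMT3a siRNA. DNMT3b siRNA replicates were at 0.419%, 0.210% and 0.188%. The DNMT3a siRNA libraries all lay above the negative ones, as did the first DNMT3b siRNA library. The difference was 0.166 points (0.392% ± 0.123 against 0.226% ± 0.031, SD, n = 3 each), with a log2 odds ratio of 0.79 ± 0.34 (SE; edgeR adjusted p = 0.297). It was the only one of 26 regions (3.85%) higher after DNMT3a siRNA with no overlap between groups. Without replicate 2 of DNMT3a siRNA the difference was 0.0955 points, and the log2 odds ratio 0.54 (edgeR adjusted p = 0.338).

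The non-CpG floor of Camta2_1 moved in the same libraries. It was 0.182%, 0.188% and 0.176% in negative siRNA, 0.252%, 0.435% and 0.240% in DNMT3a siRNA, and 0.356%, 0.167% and 0.155% in DNMT3b siRNA. Floors of DNMT3a and negative siRNA did not overlap either, and they differed by 0.127 points, against 0.166 points in CpG. Without replicate 2 of DNMT3a siRNA the floors differed by 0.0641 points and CpG by 0.0955. CpG minus floor was 0.0831 ± 0.014 points in DNMT3a siRNA and 0.0435 ± 0.032 in negative siRNA (SD, n = 3). That excess differed by 0.0396 points (exact two-sided permutation p = 0.20, adjusted p = 0.48 over 12 values; 0.10 is the smallest that 3 against 3 allow), and by 0.0224 points without replicate 1 of negative siRNA. The part of the floor in the CpG difference beyond this subtraction was not tested. Within libraries, CpG exceeded the floor by 0.0577 ± 0.027 points, in 9 of 9 (exact sign-flip test, adjusted p = 0.00521).

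**Figure D3:**
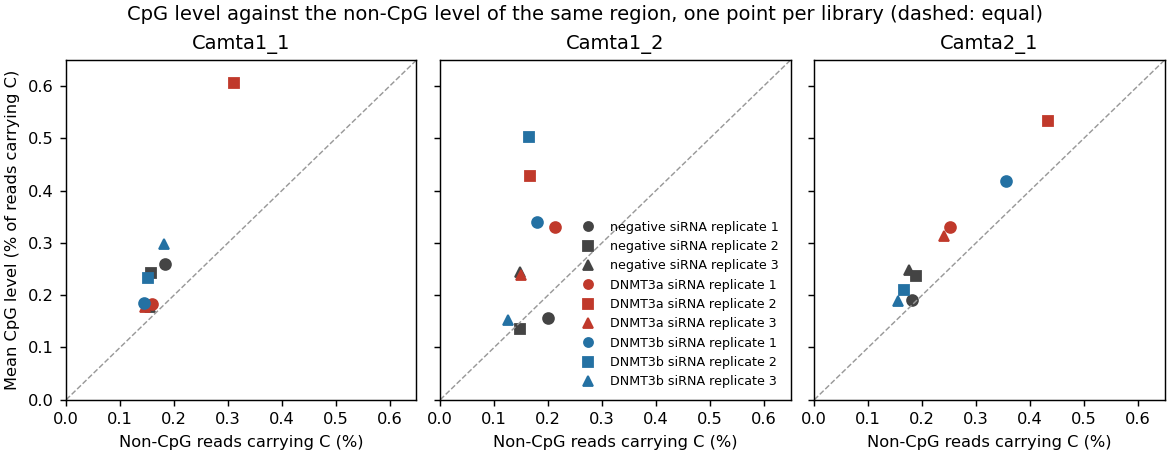
Pooled non-CpG floor (x) against mean CpG level (y), both in percent of reads carrying C, for Camta1_1, Camta1_2 and Camta2_1, with a point for each library and a dashed line where the values are equal. Points of Camta2_1 follow the line from 0.155% to 0.435% on the x axis, and replicate 2 of DNMT3a siRNA stands apart in Camta1_1 at 0.605%.

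Along Camta2_1 the highest site was offset 166, before the RefSeq start at offset 199 and inside the annotated gene, with a mean of 0.660% over 9 libraries. Negative siRNA gave 0.405%, 0.512% and 0.561% there, DNMT3a siRNA 0.919%, 1.19% and 0.746%, and DNMT3b siRNA 0.832%, 0.443% and 0.332%. The DNMT3a siRNA libraries lay above the negative ones (edgeR adjusted p = 0.375), and DNMT3b siRNA lay on both sides of negative siRNA and overlapped DNMT3a siRNA. The lowest site was offset 413 at 0.0938%. The site of smallest p was offset 335, after the start, at 0.194%, 0.165% and 0.160% in negative siRNA and 0.356%, 0.426% and 0.417% in DNMT3a siRNA. Its log2 odds ratio was 1.21 ± 0.35 (SE; edgeR unadjusted p = 0.00668, adjusted p = 0.313).

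The stretch from offset 127 to 233, which spans the gene start, held 12 CpG sites and 33 other cytosines (limits set after the values were seen). Its CpG level was 0.227%, 0.248% and 0.326% in negative siRNA, 0.533%, 0.851% and 0.375% in DNMT3a siRNA and 0.549%, 0.226% and 0.231% in DNMT3b siRNA. Its floor was 0.170%, 0.168% and 0.204% in negative siRNA, 0.298%, 0.698% and 0.317% in DNMT3a siRNA and 0.365%, 0.152% and 0.145% in DNMT3b siRNA. CpG and other cytosines were thus high in the same 4 libraries. The 7 CpG sites after it, from offset 238 to 332, were at 0.130% to 0.251% in negative siRNA and 0.116% to 0.289% in DNMT3a siRNA, and those ranges overlapped. Replicate 1 of DNMT3b siRNA was the highest library there at 0.371%, over a floor of 0.370%. In the last 12 CpG sites, from offset 335 to 413, DNMT3a siRNA was at 0.198%, 0.392% and 0.409% and replicate 1 of DNMT3b siRNA at 0.315%, against 0.176% to 0.221% in negative siRNA. Their floors were 0.255%, 0.469%, 0.372% and 0.366%, against 0.186% to 0.250%. The higher values were thus not limited to the stretch over the start.

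Counting cytosines shows how these 4 libraries differ from the rest. Among Camta2_1 cytosines with at least 1000 reads in every library, a level of 0.4% or more (a limit set after the values were seen) was reached at 12, 22 and 9 of 33 CpG sites in DNMT3a siRNA and at 21 in replicate 1 of DNMT3b siRNA. The other 5 libraries had 1 to 5 such sites. Of 114 other cytosines, 21, 53, 16 and 56 reached it in those 4 libraries, and 1 to 4 in the other 5. Leaving out replicate 2 of DNMT3a siRNA cut the Camta2_1 sites under an unadjusted edgeR p of 0.05 from 9 to 1. Without replicate 1 of negative siRNA 1 site was under it, and without replicate 2 of negative siRNA 3 were, all among the 9.

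**Figure D4:**
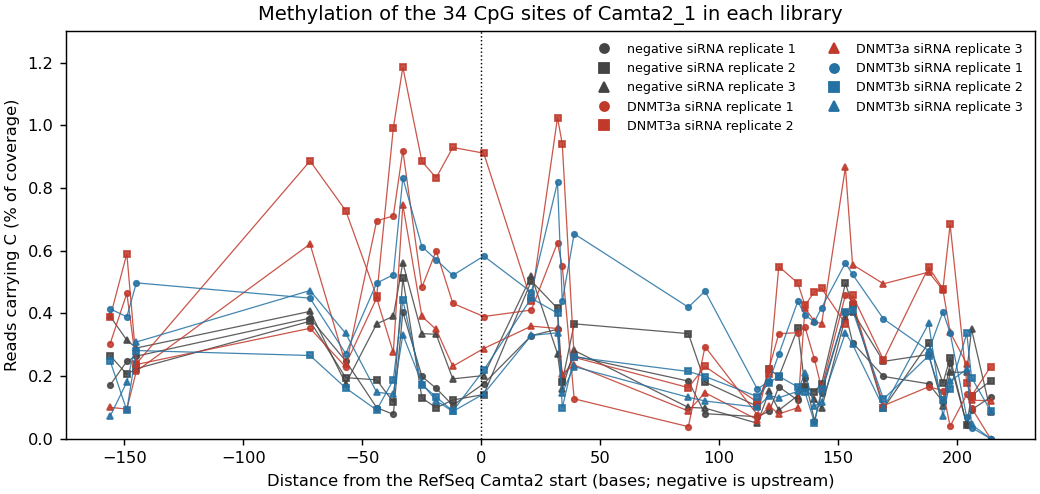
Percent of reads carrying C (y) at the 34 CpG sites of Camta2_1 by distance in bases from the RefSeq start (x, negative is upstream, dotted line at the start), with a line for each library. Values stay under 1.2% everywhere. Averaged over offsets 127 to 233, which span the start, the 3 DNMT3a siRNA libraries and replicate 1 of DNMT3b siRNA lie above the others, though not at each site.

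Camta1_1, the densest of the 4, was at 0.259%, 0.242% and 0.178% in negative siRNA. DNMT3a siRNA gave 0.183%, 0.605% and 0.177%, and DNMT3b siRNA gave 0.184%, 0.233% and 0.298%. Replicate 2 of DNMT3a siRNA was high alone, and the other 8 libraries of the 3 groups overlapped. The floor was 0.312% in that library and 0.144% to 0.183% in the others. DNMT3a minus negative siRNA was 0.0953 points (0.322% ± 0.246 against 0.226% ± 0.043, SD, n = 3), with a log2 odds ratio of 0.31 ± 0.35 (SE; edgeR adjusted p = 0.651). Without replicate 2 the difference turned to −0.0466 points.

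In replicate 2 of DNMT3a siRNA the high cytosines of Camta1_1 came in blocks. With 1000 reads or more in every library, 17 of 38 CpG sites and 30 of 83 other cytosines reached 0.4% there. The other 8 libraries had 1 to 3 and 1 to 4. Among CpG sites chosen after their values were seen, offsets 105, 110, 116, 126 and 131 were at 0.614% to 0.748% and offsets 146, 178 and 181 at 0.611% to 0.746%. The other libraries were at no more than 0.307% at these sites. Between them, offset 172 was at 0.117%, inside the range of the other 8 at 0.0740% to 0.135%. Offset 172 was also the lowest site of the region, with a mean of 0.104%. In all, this library was the highest of the 9 at 18 of the 38 CpG sites and 34 of the 83 others.

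**Figure D5:**
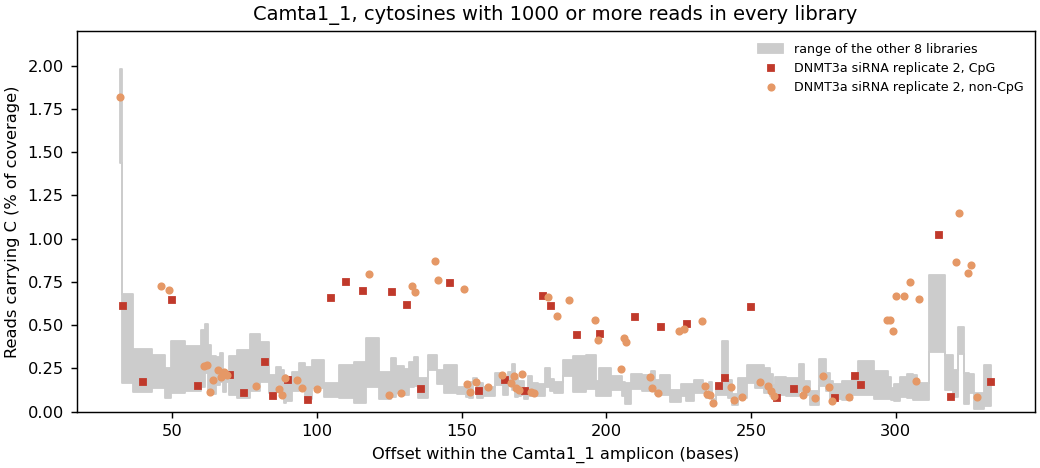
Percent of reads carrying C (y) along Camta1_1 by offset in bases (x) for cytosines with 1000 or more reads in every library. Squares and circles are CpG and other cytosines in replicate 2 of DNMT3a siRNA, and the grey band is the range of the other 8 libraries. CpG and non-CpG cytosines of that library rise above the band in the same blocks, with 17 of 38 CpG sites at 0.4% or more.

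Of the 43 kept sites of Camta1_1, 2 had a mean of 1% or more, and both lay near the end of the amplicon at lower depth. Offset 365 (90 to 261 reads) had a mean of 1.56%, the highest of the region, with negative siRNA at 0.685% to 2.84%, DNMT3a siRNA at 0% to 3.38% and DNMT3b siRNA at 0.515% to 2.30%. The library at 0% had 162 reads, which allow a level of up to 1.85%. Offset 349 (407 to 1047 reads) had a mean of 1.51%, at 0.837%, 5.55% and 0.636% in DNMT3a siRNA and 0.636% to 1.77% in the 8 libraries other than the one at 5.55%. Without replicate 2 of DNMT3a siRNA the means were 1.34% and 1.01%, still the 2 highest of the region, and groups overlapped at both.

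Camta1_1 CpG exceeded the floor by 0.0853 ± 0.085 points, in 9 of 9 libraries (exact sign-flip test, adjusted p = 0.00521). This set a CpG mean with equal weight for each site against a floor pooled over reads. By medians over cytosines, CpG lay above the others in some libraries of each group and below them in the rest. In DNMT3b siRNA the CpG medians were 0.119%, 0.144% and 0.188%, and those of other cytosines 0.144%, 0.156% and 0.172%. With CpG reads pooled over the region, as the floor is, the excess was 0.00743 points (exact unadjusted p = 0.496). Offset 50 had the second smallest p of the Camta sites for DNMT3a against negative siRNA. It was at 0.159%, 0.104% and 0.134% in negative siRNA, 0.408%, 0.645% and 0.182% in DNMT3a siRNA and 0.140%, 0.145% and 0.202% in DNMT3b siRNA, with a log2 odds ratio of 1.55 ± 0.46 against negative siRNA (SE; edgeR adjusted p = 0.313).

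Camta1_2 gave the least certain values. Its level was 0.156%, 0.135% and 0.245% in negative siRNA, 0.330%, 0.429% and 0.239% in DNMT3a siRNA and 0.340%, 0.502% and 0.153% in DNMT3b siRNA, with groups overlapping. Replicate 1 of negative siRNA rested on 3 reads carrying C among 1212 over the 8 sites, 0.248% (95% Wilson interval 0.0842% to 0.725%), and replicate 3 of DNMT3b siRNA on 10 of 6974, 0.143% (0.0779% to 0.264%). Of its 72 values by site and library, 29 were 0. The floor was 0.126% to 0.212% in all 9 libraries, and CpG exceeded it by 0.115 ± 0.124 points in 7 of 9 (exact sign-flip test, adjusted p = 0.0234).

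Its highest site, offset 325 with a mean of 0.522%, had no read carrying C in any negative siRNA library, which at that depth allows levels of up to 2.04% to 6.52%. DNMT3a siRNA gave 0%, 1.46% and 0% there, and DNMT3b siRNA 1.23%, 1.77% and 0.236% (edgeR adjusted p = 0.624 against negative siRNA). The lowest site was offset 311 at 0.111%. DNMT3b minus negative siRNA over the region was 0.153 points as the mean over sites and −0.00400 points with reads pooled, so the data at this depth give it no direction. DNMT3a minus negative siRNA was 0.154 points (log2 odds ratio 0.21 ± 0.44, SE; edgeR adjusted p = 0.841).

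At Camta2_2, DNMT3a minus negative siRNA was −0.45 points (12.6% ± 2.27 against 13.1% ± 0.54, SD, n = 3), with a log2 odds ratio of −0.07 ± 0.14 (SE; edgeR adjusted p = 0.841). Replicates 1 and 3 of DNMT3a siRNA, at 11.2% and 11.4%, were the 2 lowest of the 9 libraries, and replicate 2 was the highest. Without replicate 2 the difference was −1.76 points and the log2 odds ratio −0.24 (edgeR adjusted p = 0.0601 over 26 regions). Without replicate 1 or replicate 3 it turned to 0.250 and 0.156 points.

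DNMT3b siRNA was compared with the same 3 negative siRNA libraries, so this comparison shares its controls with the one above. None of the 93 Camta sites was called (0%) by edgeR, limma or DESeq2. At an unadjusted p under 0.05, edgeR gave 2 Camta sites, limma 6 and DESeq2 0, where 11% of the 310 sites were under it by edgeR (0.968% higher, 10% lower). Both Camta sites were higher. Groups did not overlap at 4 sites that were higher and 4 that were lower (4.30% of 93 each), against 2.26% and 18.4% of all sites. The median log2 odds ratio was 0.06 over the Camta sites and −0.14 over all 310.

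Camta2_2 was lower after DNMT3b siRNA with no overlap between groups, as were 5 of the 26 regions (19.2%). The difference was −0.94 points (12.2% ± 0.38 against 13.1% ± 0.54, SD, n = 3; two-sided exact permutation test, p = 0.10, as low as this design can go), and the log2 odds ratio was −0.11 ± 0.14 (SE; edgeR adjusted p = 0.633). Floors were 0.139% and 0.140%, so the excess over the floor differed by the same −0.94 points (exact adjusted p = 0.48). DNMT3b siRNA had the lower mean at all 8 sites, with differences of −2.31 to −0.114 points. By log2 odds ratio, 216 of all 310 sites and 23 of the 26 regions were lower after DNMT3b siRNA. The 8 sites share an amplicon and are not independent. Leaving out each library in turn gave −1.20 to −0.659 points.

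The groups did not overlap at 2 of these sites. Offset 299 was at 15.4%, 14.1% and 14.7% in negative siRNA and 12.5%, 12.8% and 11.9% in DNMT3b siRNA (edgeR adjusted p = 0.685). Offset 385 was at 1.46%, 1.46% and 1.20% in negative siRNA and 0.885%, 0.742% and 1.02% in DNMT3b siRNA, with 664 to 1920 reads (log2 odds ratio −0.65 ± 0.22, SE; edgeR adjusted p = 0.459). The other sites among the 3 of smallest p were offset 22 of Camta1_1 and offset 315 of Camta2_1. Offset 22 had 0 of 97, 102 and 131 reads carrying C in negative siRNA, which allows up to 2.29% to 3.09%, and 0.763%, 0.662% and 1.50% in DNMT3b siRNA, values under that limit (edgeR adjusted p = 0.441). Offset 315 was at 0.0743% in negative and 0.131% in DNMT3b siRNA (edgeR adjusted p = 0.446), and the groups overlapped.

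The other 3 regions overlapped between DNMT3b and negative siRNA. Camta2_1 differed by 0.0469 points (0.273% ± 0.128 against 0.226% ± 0.031, SD, n = 3; log2 odds ratio 0.21 ± 0.35, SE; edgeR adjusted p = 0.654). Without replicate 1 of DNMT3b siRNA it differed by −0.0265 points, and the log2 odds ratio was −0.17. Camta1_1 differed by 0.0120 points (log2 odds ratio −0.06 ± 0.35, SE; edgeR adjusted p = 0.878), with the sign set by the weight of sites. At Camta1_2 the log2 odds ratio was −0.26 ± 0.48 (SE; edgeR adjusted p = 0.684).

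Between DNMT3a and DNMT3b siRNA no Camta site was called either (0%), by edgeR, limma or DESeq2. Unadjusted p-values under 0.05 numbered 3 by edgeR, 6 by limma and 8 by DESeq2, where 7.42% of all sites were under it by edgeR (4.84% higher, 2.58% lower). The 3 were all higher in DNMT3a siRNA. Groups did not overlap at 3 sites higher in DNMT3a siRNA (3.23% of 93) and 2 lower (2.15%), against 7.1% and 6.45% of all 310. The 3 sites of smallest p were offsets 146 and 50 of Camta1_1 and offset 166 of Camta2_1. Offset 146 was at 0.168%, 0.746% and 0.267% in DNMT3a siRNA and 0.107%, 0.111% and 0.138% in DNMT3b siRNA (log2 odds ratio 1.50 ± 0.50, SE; edgeR adjusted p = 0.466).

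All 4 regions overlapped between those siRNAs, where 11.5% of regions were higher and 3.85% lower without overlap. Camta2_1 was 0.12 points higher in DNMT3a siRNA (log2 odds ratio 0.58 ± 0.35, SE; edgeR adjusted p = 0.515), and without replicate 1 of DNMT3b siRNA 0.193 points (log2 odds ratio 0.96, edgeR adjusted p = 0.0957). Without replicate 2 of DNMT3a siRNA that difference was 0.0486 points (log2 odds ratio 0.33, edgeR adjusted p = 0.637), and without replicate 3 of DNMT3b siRNA it was 0.0773 points. Its excess over the floor was 0.0831 ± 0.014 points in DNMT3a and 0.0465 ± 0.016 in DNMT3b siRNA (exact permutation p = 0.10, adjusted p = 0.48, SD, n = 3). Camta2_2 was 0.49 points higher (edgeR adjusted p = 0.818), and −0.82 points without replicate 2 of DNMT3a siRNA.

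Cdkn1b_1, a promoter of a CDK inhibitor gene that is also dense in CpG, had a level close to those of the low Camta regions, at 0.287% ± 0.0057 in negative, 0.288% ± 0.054 in DNMT3a and 0.303% ± 0.033 in DNMT3b siRNA (SD, n = 3). Its floor in replicate 2 of DNMT3a siRNA was 0.184%, inside the range of the other libraries at 0.162% to 0.221%. That library had the highest floor in 4 of the 26 regions, among them Camta1_1, Camta2_1 and Camta2_2. Replicate 1 of DNMT3a siRNA and replicate 1 of negative siRNA each had it in 5. Over all regions, replicate 2 of DNMT3a siRNA had the highest non-CpG percent at 0.229%, with replicate 1 of DNMT3a siRNA next at 0.224%. Higher floors than in any Camta region were seen in other libraries, such as 1.01% at Mef2c_1 in replicate 3 of DNMT3a siRNA. At the Nppa promoter, whose gene CAMTA2 is known to activate with Nkx2-5, Nppa_1 was at 43.1% ± 4.92 and Nppa_2 at 8.95% ± 2.15 in negative siRNA (SD, n = 3). Mef2d_2, of another transcription factor gene, was closest in level to Camta2_2 at 16.0% ± 1.07. Its DNMT3a siRNA libraries were at 13.9% ± 0.671 (log2 odds ratio −0.38 ± 0.11, SE; edgeR adjusted p = 0.0935), and replicate 2 there was the lowest of the 3, at 13.1%.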

How the data were processed

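The data are targeted bisulfite amplicon libraries of cultured cardiomyocytes, 3 for each of 3 siRNAs, grouped by the treatment in the labels. The submitters' processing notes name FastQC, Bismark, Bowtie2 and the build mm10, with versions and settings not given in the sources used here. For each cytosine the authors deposited a count of covering reads and 2 values in percent, for C and for T, per the file headers. Multiplying coverage by percent gave back the reads with C, within 0.01 of a whole number at all 4773 covered Camta values. No 2 of the 9 files were identical (36 pairs compared).

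Sites with 30 or more reads in every library were kept. Counts of C and T reads were tested over all 310 CpG sites, and summed over sites for 26 regions, with edgeR 4.0.16 in R 4.3.3 (two-sided quasi-likelihood test, a coefficient for each library, all 9 libraries in a single fit, Benjamini-Hochberg adjustment within a comparison). On simulated data with 310 sites in the design of DNMT3a against negative siRNA, 7, 16 and 20 of 20 sites changed by log2 odds ratios of 0.5, 1 and 2 were recovered. The simulated spread between libraries was a fixed value not taken from the Camta sites, and the lowest levels were raised. Those counts therefore do not give the power at the Camta sites. The SE of a log2 odds ratio was its absolute value divided by the square root of the F statistic of the same edgeR test. Differences from the floor used exact permutation tests over libraries, adjusted over 12 values. Each choice was also varied, with limma 3.58.1 (prior count 2), DESeq2 1.42.0, minimum depths of 10 and 100 reads, a fit to the 6 libraries compared, a replicate block, sites between 2% and 98%, pooled reads, other floors and leaving out each library. The excess with pooled CpG reads was added after seeing the data. Over sites, the deviations of samples with the same replicate number correlated at r from −0.23 to 0.46, and those with different numbers at −0.53 to 0.79. The labels name no pairing, so the numbers were not taken as pairs.

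Sites named are the highest and lowest of each region, those with a mean of 1% or more, and the 3 of smallest p in a comparison. Others were chosen after their values were seen, as stated there. The members, lists and contrast regions were chosen with earlier results of these data known. The files give no coordinates, and Camta2_1 was placed by matching cytosine contexts to RefSeq promoter sequences of GRCm38.p6.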

Additional observations from a re-analysis of the deposited data

How the results depend on the processing

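No Camta site was called in any of the 3 comparisons under any alternative run. The smallest adjusted p was 0.0875 to 0.538 for DNMT3a against negative siRNA, 0.253 to 0.804 for DNMT3b against negative siRNA and 0.0660 to 0.831 between the 2. With the replicate block it was 0.428, 0.529 and 0.621, sites under an unadjusted p of 0.05 numbered 7, 1 and 5, the log2 odds ratio was 0.79 at Camta2_1 (DNMT3a minus negative siRNA) and −0.11 at Camta2_2 (DNMT3b minus negative siRNA), and no call changed. The labels give no pairing, and 5 of 9 libraries correlated best with their own number. Of 459 alternative values 37 reversed and 1 weakened. No siRNA difference had been called in the main run, so a reversal of one could not fall on a called value. The cause of the reversals was not tested.

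Pooling reads turned DNMT3b minus negative siRNA to −0.00538 points at Camta1_1 and −0.00400 at Camta1_2. For the excess over the floor, a CHG floor gave −0.00670 at Camta2_1 (DNMT3b minus negative siRNA) and 0.0394 at Camta1_2 (DNMT3a minus DNMT3b), where pooled CpG reads gave 0.0737. A floor averaged over cytosines gave −0.0326 at Camta1_1 (DNMT3a minus DNMT3b). The excess of CpG in Camta1_1 within libraries weakened to 0.00743 points with pooled reads.

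Leaving out each library in turn gave these ranges where a sign turned. DNMT3a minus negative siRNA ranged from −0.13 to 0.55 (log2 odds ratio), −0.0466 to 0.168 points and, for the excess, −0.0345 to 0.10 at Camta1_1, and from −0.24 to 0.0263, −1.76 to 0.250 and −1.77 to 0.149 at Camta2_2. DNMT3b minus negative siRNA ranged from −0.20 to 0.0568, −0.0177 to 0.0389 and −0.00126 to 0.0375 at Camta1_1, from −0.17 to 0.44, −0.0265 to 0.0891 and −0.0142 to 0.0178 at Camta2_1, and from −0.49 to 0.21 (log2 odds ratio) at Camta1_2. DNMT3a minus DNMT3b ranged from −0.0695 to 0.61, −0.0586 to 0.156 and −0.0525 to 0.0823 at Camta1_1, from −0.13 to 0.14, −0.819 to 1.19 and −0.829 to 1.09 at Camta2_2, and from −0.0885 to 0.0860 points with −0.0923 to 0.0631 for the excess at Camta1_2. Depth limits Camta1_2 most, where 29 of 72 values were 0.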

Other observations

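Among the non-CpG cytosines of the 4 Camta amplicons, 7 carried C in 1% or more of reads on average over the 9 libraries, and 6 of them lay in Camta1_1 near an end of the amplicon. The highest were the first C of a CCG context at offsets 364 and 370, at 10.5% (92 to 260 reads) and 9.67% (56 to 135 reads). Offset 364 ranged from 7.98% to 18.5% over the libraries. The CpG site next to it, offset 365, had a mean of 1.56%. At offset 32, also a CCG, 1.73% of reads carried C at 2365 to 4144 reads. Camta2_1 held 1 such cytosine, at offset 32 with 1.49%, and Camta1_2 and Camta2_2 held none among 95 and 106. These cytosines entered the floors. A floor pools reads, so those at low depth weighed little in it, whereas offset 365 had the same weight as any other site in the CpG level.

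Offset 169 of Camta1_2, left out for depth at 8 to 26 reads, was at 11.1% in replicate 1 of negative siRNA and at 0% in the other 8 libraries.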
